A study of Homo sapiens with 36 samples.

Results

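PANC-1 cells treated with 1E5, a compound labelled an inverse agonist of the liver X receptors (LXR), were compared with PANC-1 cells given the DMSO vehicle. The comparison used 3 libraries a side, 6 of the 36 libraries of the series, taken by their labels for line and treatment. Every gene that passed a low-count filter was described, 18544 in all. PANC-1 is an established line from a human pancreatic ductal adenocarcinoma. All of its cultures were kept in high-glucose DMEM with HEPES and 10% fetal bovine serum, and ligands were given at 10 µM for 48 h. The series as a whole set 3 lines of this tumour, PANC-1, MIA PaCa-2 and BxPC-3, against 3 LXR ligands and the vehicle, with 3 libraries in each of the 12 groups. Besides 1E5 the ligands were GW3965, an LXR agonist, and 3A4, a second compound labelled an inverse agonist. Total RNA was sequenced with a stranded kit, and expression is given as CPM, the count of a gene per 1e+06 counts of its library after TMM scaling. The labels mark the libraries as biological replicates but do not state that each had its own culture. The p-values therefore rest on the variation among libraries alone, which may be technical in part. For 1E5 against DMSO this variation was estimated over all 12 PANC-1 libraries, those with GW3965 and 3A4 included.

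LXRα (NR1H3) and LXRβ (NR1H2) are nuclear receptors that sense oxysterols and bind DNA as partners of the retinoid X receptors. When a ligand activates them they switch on cholesterol efflux pumps such as ABCA1 and ABCG1, the LDL receptor degrader MYLIP, the phospholipid enzyme LPCAT3, and SREBF1, which encodes the master regulator of fatty acid synthesis. An inverse agonist favours binding of corepressors, which lowers transcription of such targets below its level without ligand.

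With 1E5, 7248 of the 18544 genes changed (39.1%), with 3660 higher (19.7%) and 3588 lower (19.3%), at an adjusted p under 0.05 in edgeR's quasi-likelihood test. The change was at least 2-fold for 3496 of them. The groups did not overlap for 8825 genes (47.6%), and the median log2 fold change over all genes was 0.02. Fold changes below are log2 values of 1E5 over DMSO with their standard errors (SE). Over the gene lists described here, genes of mitosis, DNA replication, cholesterol and fatty acid synthesis and the mitochondrial genome fell. Genes of the integrated stress response, amino acid supply, antioxidant defence and ribosomal proteins rose. Since the counts are shares of all RNA from a culture, less RNA of a gene in each cell and fewer cells that carry it cannot be told apart.

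**Figure D1:**
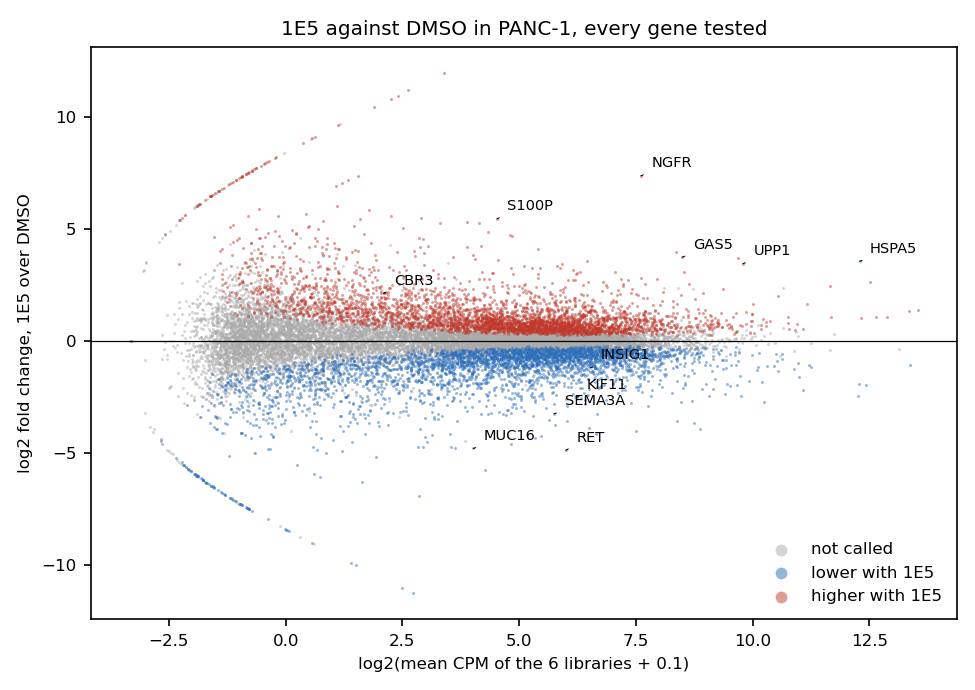
Log2 fold change of 1E5 over DMSO against the mean level over the 6 PANC-1 libraries, log2(mean CPM + 0.1), for each of the 18544 genes tested, with 3660 called higher in red and 3588 called lower in blue. NGFR (7.36) and SEMA3A (-3.26) lie far from 0 on opposite sides.

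Among the treated libraries, 1E5 replicate 2 stood apart. Its log2 CPM correlated with those of 1E5 replicates 1 and 3 at r = 0.944 and 0.955 across genes, against 0.9725 between replicates 1 and 3. For 10397 genes averaging 10 CPM or more, its level was set against the mean of the other 1E5 libraries, with 0.5 CPM added. It was over 2-fold above that mean for 415 genes and over 2-fold below it for 479. Its share of mitochondrially encoded reads was 6.59%, near the 6.82% ± 0.708 (SD, n = 3) of DMSO, against 2.69% and 3.91% in the other 1E5 libraries. Results are therefore given with and without it where that changes a call, a direction or a size by more than 1.5 times. With that library left out, 40.6% of the 19166 genes then tested were called, 20% higher and 20.6% lower. Total counts were 20560783 to 26026684 per library. CDKN2A and CDKN2B, deleted in PANC-1, had 0 counts in all 6 libraries, while SMAD4 was at 44.1 ± 5.33 CPM (SD, n = 3) with DMSO and at 0 in BxPC-3. With DMSO, CDKN2A was at 0 in MIA PaCa-2 and BxPC-3 as well, and SMAD4 was at 49.8 ± 16.3 CPM in MIA PaCa-2. CDKN2A and SMAD4 therefore do not separate PANC-1 from MIA PaCa-2. From a list of 20 markers of other cell types, PTPRC, CD3E, PECAM1, VWF, CDH5, LYVE1, DCN, LUM, INS, GCG, PRSS1, CPA1 and CELA3A were at 0 in all 6, while CD14, CD68, COL1A1, COL3A1 and PDGFRB had counts in all 6.

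Both receptor genes were expressed and rose. NR1H2 (chr19:50329653-50382982, GRCh38) was at 42.9, 37.1 and 40.3 CPM with DMSO and 61.1, 60.1 and 56.0 CPM with 1E5 (log2 fold change 0.56 ± 0.11 (SE), adjusted p = 0.00163). NR1H3 was at 4.79, 7.18 and 7.96 CPM with DMSO and 12.8, 10.4 and 13.7 CPM with 1E5 (0.88 ± 0.20, adjusted p = 0.0051). In both, all 3 treated libraries lay above all 3 controls. The partner RXRB rose as well, from 41.7, 46.7 and 43.6 CPM to 58.8, 67.0 and 56.5 (0.47 ± 0.12, adjusted p = 0.011), while the coactivators NCOA2 and NCOA3 each fell by 0.70 on the log2 scale. Of 9 receptors and coregulators tested, 3 rose and 3 fell (33.3% each, beside 19.7% and 19.3% of all genes), with a median of -0.08.

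The direct LXR targets did not move as one. Of 14 that were tested from a list of 19, 5 rose (35.7%), 4 fell (28.6%) and 5 did not pass the test. Over all genes 19.7% rose and 19.3% fell. The median of the tested targets was 0.26 against 0.02 over all genes. The other 5 of the list had too few counts. The efflux pump ABCA1 was at 5.72, 8.88 and 7.45 CPM with DMSO and 11.2, 6.44 and 10.1 CPM with 1E5, overlapping groups whose difference did not pass the test (0.33 ± 0.26, adjusted p = 0.349, and 0.53 without 1E5 replicate 2, adjusted p = 0.117). MYLIP, the LDL receptor degrader, was at 15.8, 16.6 and 14.0 CPM with DMSO and 18.5, 16.8 and 17.3 CPM with 1E5; the groups did not overlap, but the difference did not pass the test (0.18 ± 0.11, adjusted p = 0.215). GW3965 brought the same 2 genes to 164, 240.4 and 165 CPM and 54.1, 58.2 and 52.1 CPM, above every DMSO and 1E5 library. Neither mean was below its vehicle level with 1E5.

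ABCG1, the partner pump, rose instead. It was at 1.14, 1.54 and 0.815 CPM with DMSO and 5.40, 8.17 and 4.41 CPM with 1E5 (2.36 ± 0.27, adjusted p = 6.37e-05), with no overlap. The level stayed below that with GW3965, 42.3, 43.6 and 38.7 CPM, by 2.79 on the log2 scale (SE 0.26, adjusted p = 1.74e-05). PLTP, which moves phospholipids between lipoproteins, rose from 9.82, 22.1 and 12.5 to 59.4, 94.9 and 78.0 CPM (2.38 ± 0.37, adjusted p = 0.000494). TTC39B, which promotes LXR breakdown, rose from 1.78, 4.14 and 1.48 to 12.2, 12.6 and 12.1 CPM (2.32 ± 0.38, adjusted p = 0.000677), and by 2.91 without DMSO replicate 2. RAB11FIP1 and SMPDL3A, the remaining targets called higher, were named after their values were seen and rose by 0.42 and 0.76; without 1E5 replicate 2 RAB11FIP1 was not called (adjusted p = 0.0505). The count of LXR targets called higher was 3 without 1E5 replicate 1, without 1E5 replicate 3 and without DMSO replicate 3.

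LPCAT3, which puts polyunsaturated chains into phospholipids, had the smallest p of the falling targets. It was at 60.8, 58.9 and 54.5 CPM with DMSO and 15.7, 18.3 and 18.0 CPM with 1E5 (-1.75 ± 0.10, adjusted p = 7.46e-07), and every treated library was under 19 CPM. NR0B2, the orphan receptor SHP, went from 1.58, 0.73 and 0.582 CPM to 0 in all 3 treated libraries, at least 23.6-fold lower when 3 counts over the group stand in for 0. SREBF1 was at 149, 257 and 185 CPM with DMSO and 47.1, 158 and 41.9 CPM with 1E5 (-1.26 ± 0.42, adjusted p = 0.0341). Its second treated library, 158 CPM, overlapped the controls while the other treated libraries did not. SREBF1 fell by 2.14 on the log2 scale without 1E5 replicate 2 (adjusted p = 5.22e-05), and the call was lost without 1E5 replicate 1, 1E5 replicate 3, DMSO replicate 2 or DMSO replicate 3 (adjusted p = 0.103, 0.104, 0.107 and 0.0638) and in a fit of only the 6 compared libraries (0.101).

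**Figure D2:**
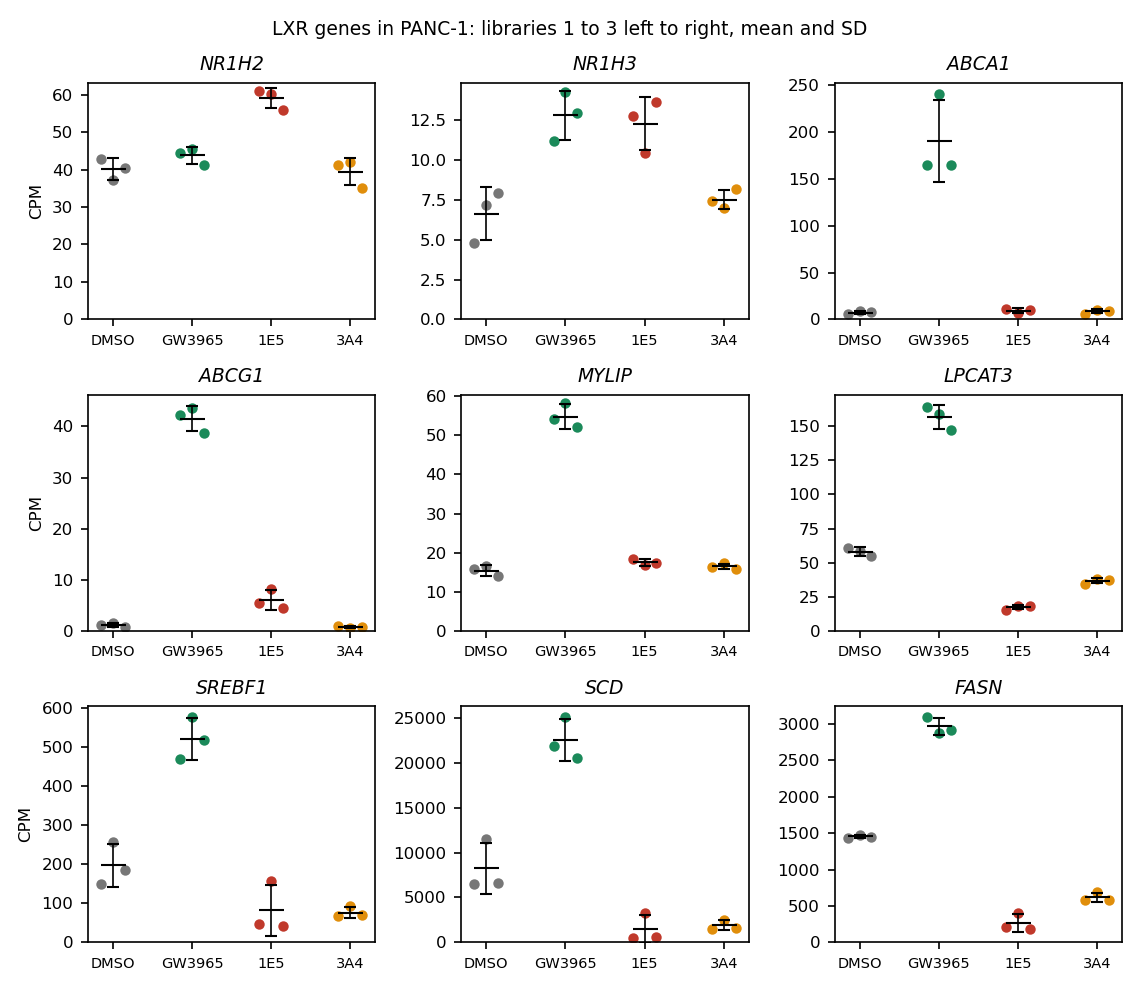
CPM of NR1H2, NR1H3, ABCA1, ABCG1, MYLIP, LPCAT3, SREBF1, SCD and FASN in PANC-1 with DMSO, GW3965, 1E5 and 3A4. Points are the libraries 1 to 3 from left to right, and the bar and whiskers are the mean and SD of 3 libraries. ABCA1 with 1E5 overlaps the controls, while LPCAT3 and FASN lie below them in every library.

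The enzymes of fatty acid synthesis fell as a group. Of 19 tested, 14 fell (73.7%, beside 19.3% of all genes) and 2 rose (10.5%, beside 19.7%), with a median of -1.05. SCD, the desaturase that makes monounsaturated fat, was at 6548, 11541 and 6645 CPM with DMSO and 529, 3298 and 594 CPM with 1E5 (-2.48 ± 0.60, adjusted p = 0.00706). The second treated library was the highest by far, and without it the fall was 3.87 on the log2 scale (adjusted p = 8.81e-06). FASN, fatty acid synthase, was at 1437, 1479 and 1452 CPM with DMSO and 209.8, 403 and 179 CPM with 1E5 (-2.46 ± 0.25, adjusted p = 2.5e-05), with the treated libraries far below the controls. FADS2, the first desaturase of polyunsaturated fat, fell from 731, 974 and 689 to 48.6, 86.4 and 53.9 CPM (-3.66 ± 0.26, adjusted p = 2.22e-06). ACLY and ACACA, which make and carboxylate acetyl-CoA, fell by 1.48 and 1.73 on the log2 scale. ME1, a source of NADPH, and MLXIPL, the carbohydrate-sensing factor ChREBP, rose (0.82 and 1.79); MLXIPL was 1.09 without 1E5 replicate 2.

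Cholesterol synthesis and uptake fell too, and here the libraries differed. Of 26 genes tested, 18 fell (69.2%, beside 19.3% of all genes) and 2 rose (7.69%, beside 19.7%), with a median of -1.01. LSS, which closes the sterol ring, went from 219.7, 252 and 221 to 40.5, 56.3 and 39.4 CPM (-2.35 ± 0.14, adjusted p = 7.46e-07). ACAT2, which condenses acetyl-CoA for the pathway, went from 167, 129.5 and 153 to 17.3, 28.1 and 17.8 CPM (-2.83 ± 0.18, adjusted p = 1.26e-06), and FDPS fell by 1.42 on the log2 scale. All 3 were low in every treated library. The list median was -1.43 and -1.46 in 1E5 replicates 1 and 3 and -0.53 in replicate 2, and without replicate 2 it was -1.44 with 23 lower and 2 higher. INSIG1, the sterol-sensing anchor of this pathway, was chosen after its values were seen and shows the split, with 100.2, 95.9 and 189.9 CPM with DMSO and 17.1, 129.6 and 20.6 CPM with 1E5. Its difference was -1.21 ± 0.64, adjusted p = 0.157, and without 1E5 replicate 2 it fell by 2.77 on the log2 scale (adjusted p = 0.000225). NPC1L1, a cholesterol importer, was at 0 in all controls and at 2.30, 2.04 and 3.99 CPM with 1E5, at least 65.4-fold higher. SCAP, the escort of the SREBP factors, rose by 0.41 (adjusted p = 0.0123), a call lost without DMSO replicate 2 (adjusted p = 0.0613) and in a fit of only the 6 compared libraries (0.0554).

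Of 19 genes that handle stored fat, 4 rose (21.1%, near the 19.7% of all genes) and 7 fell (36.8%, beside 19.3%). PLIN2, a coat protein of lipid droplets, rose from 21.4, 24.8 and 20.5 to 126, 77.9 and 94.9 CPM (2.16 ± 0.19, adjusted p = 9.25e-06). CPT1A, the gate of fatty acid oxidation, fell from 304, 257 and 268 to 159.8, 115 and 123 CPM (-1.06 ± 0.13, adjusted p = 7.83e-05). ANGPTL4, a lipase inhibitor, fell by 2.35 on the log2 scale, and by 3.50 without 1E5 replicate 2. The list had 2 genes higher without 1E5 replicate 3, without DMSO replicate 2 and without DMSO replicate 3.

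The integrated stress response, in which phosphorylated eIF2α raises translation of ATF4, rose in most of its genes. Of 17 genes tested, 15 rose (88.2%, beside 19.7% of all genes) and 1 fell (5.88%, beside 19.3%), with a median of 1.86. PPP1R15A (GADD34), which reverses eIF2α phosphorylation, was at 33.4, 29.7 and 22.1 CPM with DMSO and 261, 224 and 219.9 CPM with 1E5 (3.05 ± 0.18, adjusted p = 8.59e-07). The C/EBP factors CEBPG and CEBPB rose by 1.61 and 1.72, with every treated library above every control. ATF4, DDIT3 (CHOP), ATF3 and CHAC1, named after their values were seen, rose by 1.16, 2.41, 3.54 and 2.18 (adjusted p = 0.000311, 0.000282, 0.000375 and 0.00156). ATF5 was the gene that fell, 136, 86.7 and 108 CPM with DMSO and 30.1, 52.8 and 14.7 CPM with 1E5 (-1.76 ± 0.57, adjusted p = 0.0289). Its call was lost without 1E5 replicate 1, 1E5 replicate 3, DMSO replicate 1 or DMSO replicate 3 (adjusted p = 0.0736, 0.0921, 0.081 and 0.0591).

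Amino acid synthesis, transport and tRNA charging, much of it under ATF4, rose in 26 of 28 genes tested (92.9%, beside 19.7% of all genes). The list fell in 0 genes at an adjusted p under 0.05 in edgeR, and its median was 1.15. The 2 that did not pass, named after their values were seen, were SLC38A2 (-0.34 ± 0.13, adjusted p = 0.0564) and PSPH (-0.06 ± 0.26, adjusted p = 0.886, and 0.24 without 1E5 replicate 2, adjusted p = 0.242), with medians of the list between 1.06 and 1.18 in the 3 treated libraries. SLC3A2, the heavy chain of amino acid exchangers, was at 126, 123 and 104 CPM with DMSO and 713, 715 and 592 CPM with 1E5 (2.51 ± 0.14, adjusted p = 6.09e-07). PYCR1, of proline synthesis, was at 90.7, 83.9 and 81.4 CPM with DMSO and 218, 223 and 209.8 CPM with 1E5 (1.35 ± 0.10, adjusted p = 2.7e-06). SARS1, the seryl-tRNA synthetase, rose from 128, 149 and 126 to 341, 369.6 and 323 CPM (1.36 ± 0.11, adjusted p = 5.07e-06). In these 3 genes every treated library lay above every control. At an unadjusted p under 0.05 in edgeR 1 gene of the list was lower. DESeq2 and limma-voom called 0 lower, and 1 was called lower without 1E5 replicate 3 and without DMSO replicate 1.

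The promoters of these genes can be read for the letters that ATF4 and C/EBP partners bind. Sequences are from RefSeq (GRCh38.p14), which holds 300-base windows, 250 before and 50 after the start, for 35116 genes. The word TGATGNAA, searched on both strands, occurs in 3.62% of all windows, in 7 of the 22 amino acid genes with a window (31.8%) and in 2 of 16 stress response genes (12.5%). A match describes the letters and is not evidence of binding. The 250 bases before the start are shown for a member of the stress response list and of the amino acid list, since these lists rose together. Each is the member with the smallest p that has a TGATGNAA match in these bases. Capitals mark the match, ATF3 at chr1:212565157-212565406, plus strand and AARS1, the alanyl-tRNA synthetase, at chr16:70289507-70289756, minus strand.
ATF3: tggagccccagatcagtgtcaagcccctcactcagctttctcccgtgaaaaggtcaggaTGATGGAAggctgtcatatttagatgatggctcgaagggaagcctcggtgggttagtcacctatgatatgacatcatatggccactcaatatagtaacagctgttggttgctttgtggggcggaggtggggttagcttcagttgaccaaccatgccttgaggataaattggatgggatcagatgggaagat
AARS1: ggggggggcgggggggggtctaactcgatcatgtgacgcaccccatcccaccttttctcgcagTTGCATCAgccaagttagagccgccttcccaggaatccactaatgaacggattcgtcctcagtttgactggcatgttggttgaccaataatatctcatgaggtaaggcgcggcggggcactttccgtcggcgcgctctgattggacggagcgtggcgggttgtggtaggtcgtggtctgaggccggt

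The chaperones of the endoplasmic reticulum showed a split between libraries. HSPA5 (BiP, chr9:125234853-125241330), the main chaperone of the compartment, went from 804, 821 and 749.9 CPM with DMSO to 7633, 12177 and 7914 CPM (log2 fold change 3.54 ± 0.19 (SE), adjusted p = 4.44e-07), 11.7-fold higher. Of 22 genes of the list, 11 rose (50%, beside 19.7% of all genes) and 0 fell, with a median of 0.53. The stress sensors ERN1 (IRE1) and ATF6 rose by 2.71 and 1.32 (adjusted p = 5.25e-06 and 1.63e-05). Medians over the list were 0.25 and 0.23 in replicates 1 and 3 and 0.98 in replicate 2. Without 1E5 replicate 2, 11 genes were higher and 6 lower, median 0.19. The 6 included PDIA3, PDIA4 and CALR, chosen after their values were seen. PDIA4 was at 529.5, 432 and 487 CPM with DMSO and 277, 589.7 and 271 CPM with 1E5, below the controls in 1E5 replicates 1 and 3 and above them in replicate 2.

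The HSPA5 promoter holds CCACG, one end of the ER stress element. CCACG occurs on either strand in 38.1% of all windows and in 17 of 21 list members with one (81%). It is shown because HSPA5 was the member with the smallest p (chr9:125241344-125241593, minus strand), with capitals on CCACG.
HSPA5: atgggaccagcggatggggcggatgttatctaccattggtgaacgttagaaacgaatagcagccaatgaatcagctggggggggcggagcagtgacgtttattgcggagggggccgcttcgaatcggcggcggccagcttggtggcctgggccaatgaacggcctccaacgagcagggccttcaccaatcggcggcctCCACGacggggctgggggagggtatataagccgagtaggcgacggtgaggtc

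Of 15 heat shock genes, 2 rose and 6 fell, 13.3% and 40% beside 19.7% and 19.3% of all genes. HSPA9, the mitochondrial HSP70, rose from 729, 687 and 719 to 1347, 1297 and 1316 CPM (0.89 ± 0.08, adjusted p = 1.33e-05), and the cytosolic cochaperones BAG3 and DNAJA1 fell by 1.08 and 0.95 on the log2 scale. Without DMSO replicate 1, and without DMSO replicate 3, 3 were lower. NRF2, which drives antioxidant genes, had 12 of 21 targets higher (57.1%, beside 19.7% of all genes) and 0 lower (median 0.93). HMOX1, heme oxygenase, was at 123, 125 and 108 CPM with DMSO and 1769.6, 1155 and 1653 CPM with 1E5 (3.69 ± 0.20, adjusted p = 4.62e-07). FTL, ferritin light chain, was at 1816, 1602 and 1554 CPM with DMSO and 8542, 12164 and 9509 CPM with 1E5 (2.60 ± 0.15, adjusted p = 7.79e-07), with the caveat that ferritin reads can be shared with its many pseudogenes. OSGIN1, an oxidative stress growth inhibitor, rose from 5.38, 4.54 and 4.35 to 36.9, 41.6 and 37.1 CPM (3.02 ± 0.20, adjusted p = 1.73e-06). Of 7 AHR targets, 3 rose and 1 fell, 42.9% and 14.3%. CYP1A1, the classic AHR readout, was at 0 in all controls and at 6.28, 4.44 and 10.8 CPM with 1E5, at least 169-fold higher, and TIPARP, an AHR repressor, rose by 2.50. Of 9 metallothioneins and zinc transporters 1 rose and 3 fell, 11.1% and 33.3%. MT1X rose by 1.25, while MT1E, SLC30A1, a zinc exporter, and MT2A fell by 1.17, 0.68 and 0.70 on the log2 scale, and near-identical metallothionein copies can share reads. The call of MT2A was lost without 1E5 replicate 3 and without DMSO replicate 1 (adjusted p = 0.0504 and 0.0596), and 2 of the list rose without 1E5 replicate 2. The median of the list was -0.68, and -0.26 without DMSO replicate 2.

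**Figure D3:**
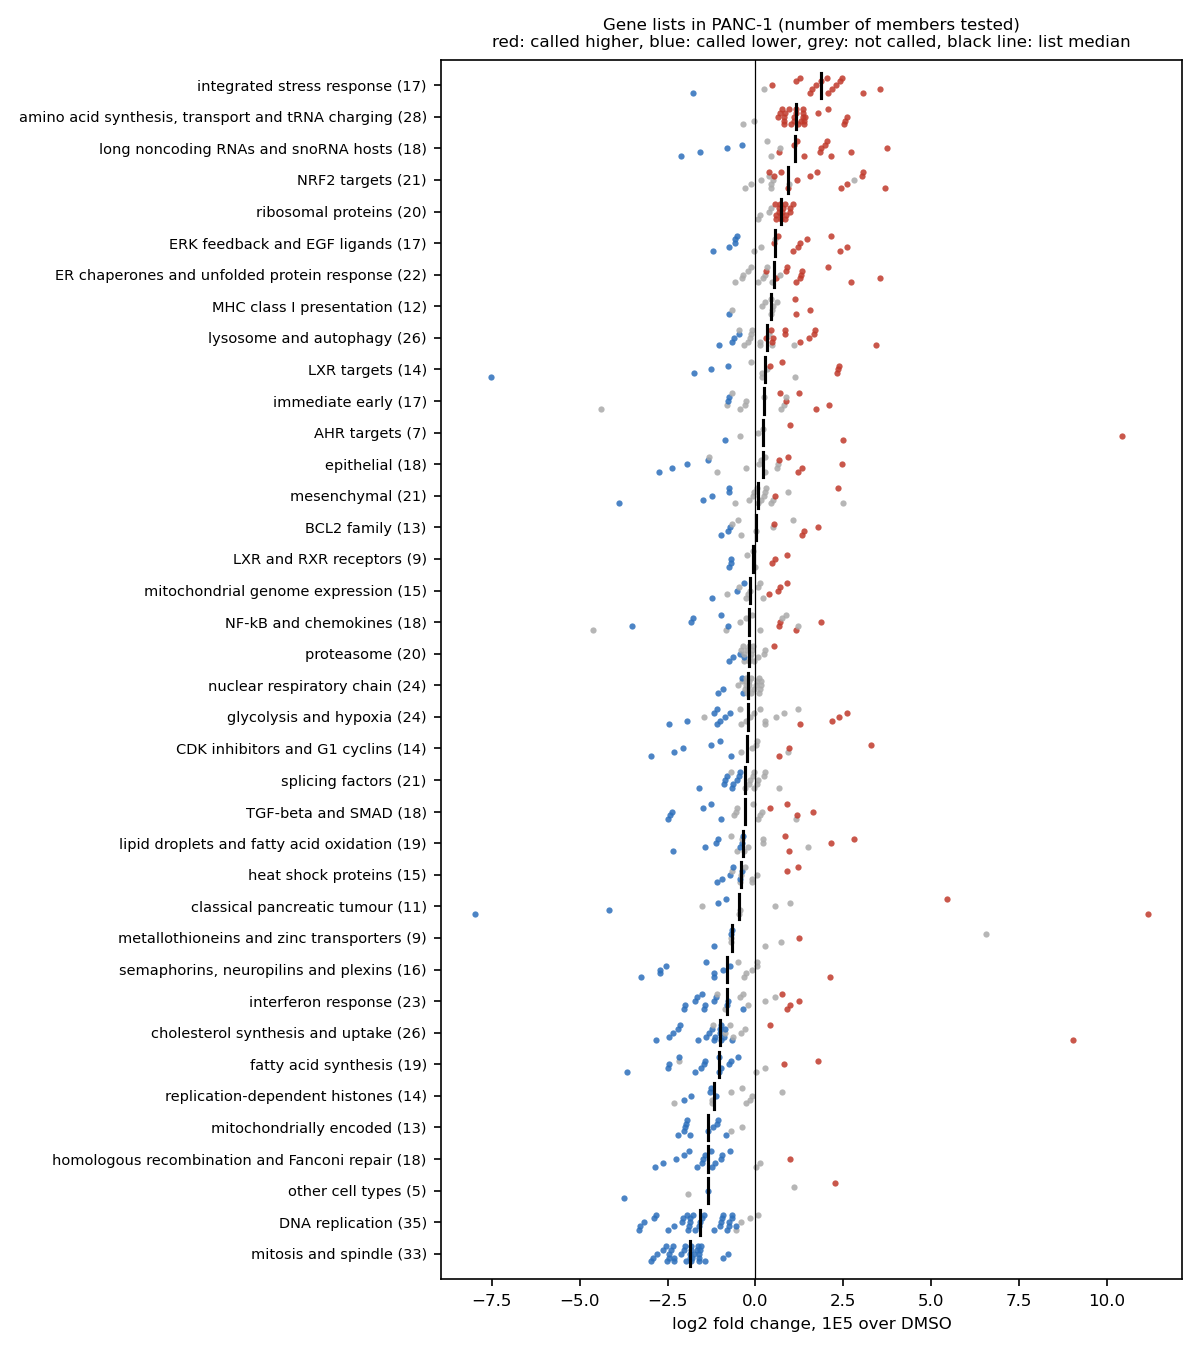
Log2 fold change of 1E5 over DMSO for each member tested of the gene lists shown (number tested in brackets). Red marks called higher, blue called lower and grey not called, with a black line at the median of the list. Mitosis and DNA replication lie almost wholly left of 0, amino acid supply and the integrated stress response right of it.

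Genes of cell division fell together. All 33 mitosis genes tested fell (median -1.87), and 31 of 35 DNA replication genes did (88.6%, median -1.59), beside 19.3% of all genes. In either list 0 rose, also at an unadjusted p under 0.05 in edgeR, without 1E5 replicate 2, and in DESeq2 and limma-voom. KIF11, the motor that separates spindle poles, was at 133, 107 and 144 CPM with DMSO and 20.4, 24.6 and 21.3 CPM with 1E5 (log2 fold change -2.53 ± 0.15 (SE), adjusted p = 7.48e-07). NDC80, of the kinetochore, was at 58.5, 39.3 and 55.3 CPM with DMSO and 7.35, 9.06 and 5.53 CPM with 1E5 (-2.80 ± 0.24, adjusted p = 7.49e-06). MYBL2, a factor that drives mitotic genes, fell from 139.7, 84.0 and 121 to 15.2, 19.2 and 11.3 CPM (-2.92 ± 0.26, adjusted p = 1.13e-05). Each treated library was below each control for all 3. In DNA replication, UHRF1, which keeps methylation marks at the fork, was at 53.9, 34.8 and 54.6 CPM with DMSO and 4.41, 5.19 and 4.95 CPM with 1E5 (-3.30 ± 0.22, adjusted p = 1.73e-06). GINS1, a subunit of the replicative helicase, went from 42.0, 29.1 and 45.7 to 4.73, 5.42 and 5.65 CPM (-2.88 ± 0.21, adjusted p = 2.93e-06). Medians of the mitosis list were -2.30, -1.45 and -2.26 in 1E5 replicates 1, 2 and 3.

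Repair genes fell with them, 15 of 18 lower (83.3%, beside 19.3% of all genes) and 1 higher (median -1.35). EXO1, a nuclease, fell by 2.63 on the log2 scale, and RBBP8 (CtIP), which starts end resection, was the one that rose (0.99 ± 0.10, adjusted p = 2.19e-05). With 1E5 replicate 2 left out, 2 rose. Of 14 CDK and cyclin genes 6 fell (42.9%, beside 19.3% of all genes) and 3 rose (21.4%, near the 19.7% of all genes). CDKN2C (p18) fell in every treated library (-2.98 ± 0.17, adjusted p = 7.27e-07), and CCND1, cyclin D1, went from 224, 203 and 230.3 to 88.9, 97.3 and 87.7 CPM (-1.26 ± 0.10, adjusted p = 5.71e-06). CDKN1B (p27) rose by 0.66 (adjusted p = 0.00102), and CDKN1A (p21), which was chosen after its values were seen, did not pass (0.00 ± 0.25, adjusted p = 0.992). Of 14 replication-dependent histones, whose transcripts lack poly(A) tails, 5 fell (35.7%, beside 19.3% of all genes) and 0 rose. At an unadjusted p under 0.05 in edgeR 0 rose as well. Without DMSO replicate 2 or 3, 3 fell.

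Promoters of the falling mitosis genes were read for 2 words. TTTGAA, the cell cycle homology region bound by the DREAM complex, occurs on either strand in 15.2% of all windows, in 18 of the 27 mitosis genes that have one (66.7%) and in 1 of 31 replication genes (3.23%). CCAAT occurs in 34.6% of all windows and in 20 of the 27 (74.1%). The E2F word TTTNGCGC occurs in 1.79% of all windows and in 13 of 31 replication genes (41.9%). They are shown for KIF11 (chr10:92592880-92593129, plus strand, capitals on TTCAAA, the reverse complement of TTTGAA) and for POLE, a replicative polymerase (chr12:132687343-132687592, minus strand, capitals on GCGCCAAA, an E2F match on the other strand).
KIF11: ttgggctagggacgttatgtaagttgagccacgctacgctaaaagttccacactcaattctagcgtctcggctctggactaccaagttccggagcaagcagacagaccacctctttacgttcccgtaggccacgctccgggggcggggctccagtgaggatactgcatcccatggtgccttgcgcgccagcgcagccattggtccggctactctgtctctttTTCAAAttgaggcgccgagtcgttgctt
POLE: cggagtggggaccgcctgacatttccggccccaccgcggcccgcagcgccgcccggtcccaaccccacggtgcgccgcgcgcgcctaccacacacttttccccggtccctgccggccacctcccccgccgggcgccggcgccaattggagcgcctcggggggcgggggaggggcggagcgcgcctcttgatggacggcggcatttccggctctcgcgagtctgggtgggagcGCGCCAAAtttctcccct

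Of 13 BCL2 family genes 4 rose and 3 fell, 30.8% and 23.1% beside 19.7% and 19.3% of all genes. BCL2L1 (BCL-xL) rose from 125, 112 and 116 to 292, 296 and 294 CPM (1.32 ± 0.12, adjusted p = 1.16e-05), PMAIP1 (NOXA) rose by 1.39, and BOK and BID fell by 0.74 and 0.79 on the log2 scale. Without DMSO replicate 1 or 3, 2 of the family rose.

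The RNAs of the mitochondrial genome were lower with 1E5, 11 of 13 called lower (84.6%, beside 19.3% of all genes, median -1.35). MT-CYB, a subunit of complex III, was at 3103, 3626 and 3902 CPM with DMSO and 693, 851 and 776 CPM with 1E5 (log2 fold change -2.20 ± 0.13 (SE), adjusted p = 8.59e-07). MT-ND3 and MT-ATP8 fell by 2.04 and 1.99 on the log2 scale, low in each treated library. The exceptions were MT-ND4L and MT-ND4, for example MT-ND4 at 8754, 10684 and 11066 CPM with DMSO and 3663, 13516 and 6278 CPM with 1E5 (-0.38 ± 0.35, adjusted p = 0.416); both were chosen after their values were seen. Without 1E5 replicate 2, 13 of 13 fell (median -2.03), and MT-ND4 fell by 1.03 on the log2 scale (adjusted p = 0.00254). Of 24 respiratory chain subunits made in the nucleus, 4 fell (16.7%, near the 19.3% of all genes) and 0 rose, with ATP5F1A at 295, 249.7 and 279 CPM with DMSO and 151, 159.8 and 127 CPM with 1E5 (-0.91 ± 0.12, adjusted p = 0.000115). The number lower was 9 without 1E5 replicate 2, and 2 without 1E5 replicate 1, 1E5 replicate 3, DMSO replicate 1 or DMSO replicate 3. POLRMT, the mitochondrial RNA polymerase, rose from 54.8, 49.4 and 50.8 to 83.4, 85.9 and 83.8 CPM (0.71 ± 0.09, adjusted p = 0.000114), and TFAM, which packs the mitochondrial genome, fell by 0.52 on the log2 scale.

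**Figure D4:**
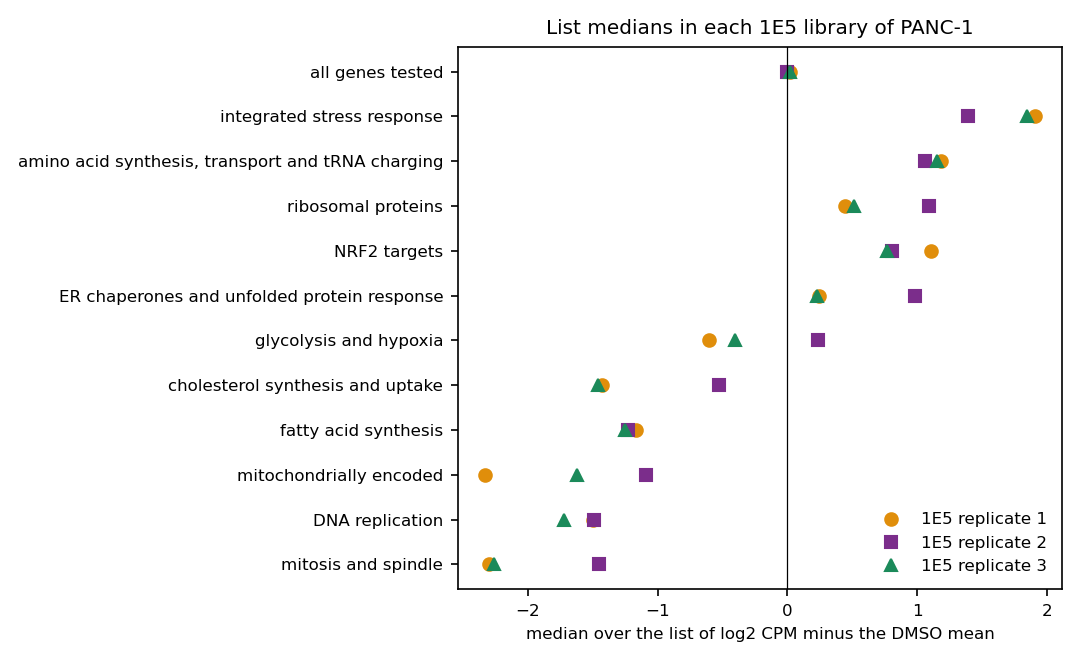
Median over all genes tested and over selected lists (vertical) in each of the 3 1E5 libraries (marker shapes), as log2 CPM minus the mean of the DMSO libraries (horizontal). Amino acid supply has medians of 1.06 to 1.18, while cholesterol synthesis (-1.43, -0.53 and -1.46) and ER chaperones (0.25, 0.98 and 0.23) differ for replicate 2.

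Ribosomal protein genes rose modestly, 16 of 20 higher (80%, beside 19.7% of all genes) and 0 lower (median 0.71). RPS18 was at 1159.7, 1213 and 1010.3 CPM with DMSO and 1935, 3108 and 2023 CPM with 1E5 (1.06 ± 0.16, adjusted p = 0.000434), and RPS6 rose by 0.99; pseudogenes of this family can share reads with them. The medians were 0.44, 1.09 and 0.51 in the 3 treated libraries. In a mixed list of 18 long noncoding RNAs and hosts of small nucleolar RNAs, 11 rose and 4 fell. These were 61.1% and 22.2%, beside 19.7% and 19.3% of all genes. The host GAS5 (chr1:173863900-173868882), a growth-arrest transcript, was at 45.6, 58.8 and 47.4 CPM with DMSO and 494, 937 and 582 CPM with 1E5 (3.73 ± 0.23, adjusted p = 1.03e-06). ZFAS1 rose from 42.1, 43.1 and 41.8 to 219, 371 and 242 CPM (2.71 ± 0.19, adjusted p = 2.05e-06), and SNHG8 by 2.15. HOTAIR, NORAD and H19 fell by 2.12, 0.81 and 1.59 on the log2 scale. Without 1E5 replicate 1, 1E5 replicate 3 or DMSO replicate 2, 2 of this list fell and H19 was not called (adjusted p = 0.0639, 0.074 and 0.0586), nor was it in a fit of only the 6 compared libraries (0.0613), while without 1E5 replicate 2 H19 fell by 2.58. Splicing factors fell in 9 of 21 genes (42.9%, beside 19.3% of all genes). HNRNPA2B1 was at 1401, 1216 and 1229 CPM with DMSO and 457, 387 and 428 CPM with 1E5 (-1.60 ± 0.12, adjusted p = 3.76e-06). Of 20 proteasome genes 4 fell, 20% beside 19.3% of all genes, and 15 were not called, with PSMD2 and PSMD1 falling by 0.75 and 0.64 on the log2 scale. Without 1E5 replicate 3, DMSO replicate 1 or DMSO replicate 3, 2 fell.

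Of 18 epithelial genes, 5 rose and 4 fell, 27.8% and 22.2% beside 19.7% and 19.3% of all genes. KRT8, a keratin of simple epithelia, was at 2555, 1759 and 2023 CPM with DMSO and 333, 334 and 279.6 CPM with 1E5 (-2.74 ± 0.17, adjusted p = 1.13e-06). KRT19 went from 1396, 779.6 and 1261 to 219.7, 239 and 205 CPM and KRT18 from 1066, 639 and 721 to 236, 206 and 188 CPM. CLDN7, a tight junction claudin, rose from 22.3, 45.8 and 28.6 to 68.3, 97.1 and 78.7 CPM (1.33 ± 0.23, adjusted p = 0.000928). It so moved against KRT8, KRT18 and KRT19, and pseudogenes of keratins can share reads. KRT7 was at 6.17, 5.68 and 5.63 CPM with DMSO and 6.51, 6.57 and 8.01 CPM with 1E5. It did not pass the test (0.27 ± 0.23, adjusted p = 0.385), nor did EPCAM (0.28 ± 0.17, adjusted p = 0.218). Of 21 mesenchymal genes 2 rose and 5 fell, 9.52% and 23.8%. SPARC, of the extracellular matrix, was at 75.6, 227 and 204 CPM with DMSO and 3.54, 24.9 and 6.11 CPM with 1E5 (-3.88 ± 0.73, adjusted p = 0.00162), fell by 5.12 without 1E5 replicate 2, and 8 fell of that list without that library. VIM was at 2966, 2752 and 3479 CPM with DMSO and 2868, 5873 and 2664 CPM with 1E5, highest in the second treated library, and did not pass (0.31 ± 0.25, adjusted p = 0.357); without that library the difference was -0.15 (adjusted p = 0.373).

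Of 11 markers of the classical subtype of pancreatic cancer, 2 rose (18.2%, near the 19.7% of all genes) and 4 fell (36.4%, beside 19.3%). AGR2, a secretory disulfide isomerase, was at 177, 183 and 207 CPM with DMSO and 8.98, 12.5 and 10.2 CPM with 1E5 (-4.16 ± 0.21, adjusted p = 4.27e-07). S100P, a calcium-binding protein of pancreatic cancer, was at 0.79, 1.46 and 0.815 CPM with DMSO and 42.5, 44.0 and 48.1 CPM with 1E5 (5.44 ± 0.28, adjusted p = 4.44e-07). LCN2, a siderophore binder, was at 0 in all controls and between 6.66 and 18.8 CPM with 1E5, at least 287-fold higher. Among markers of other cell types, CD68, a lysosomal protein used for macrophages, rose from 15.1, 8.96 and 11.6 to 44.5, 77.6 and 49.5 CPM, and COL1A1, a fibroblast collagen, fell from 48.4, 168 and 88.8 to 4.73, 11.8 and 6.31 CPM. CD14, a monocyte receptor, was at 1.14, 0.771 and 0.776 CPM with DMSO and 0.437, 0.444 and 0.155 CPM with 1E5 (-1.36 ± 0.46, adjusted p = 0.0339), with 4 to 23 counts per library. Its call was lost without 1E5 replicate 3, DMSO replicate 1 or DMSO replicate 3 (adjusted p = 0.106, 0.105 and 0.0565), with no filter (0.0547), in only the 6 compared libraries (0.0823) and in all 36 libraries (0.0638). COL3A1, a fibrillar collagen named after its values were seen, was at 5.53, 11.8 and 4.85 CPM with DMSO and 0.199, 4.97 and 0.696 CPM with 1E5 (-1.93 ± 0.83, adjusted p = 0.0854), and fell by 4.02 on the log2 scale without 1E5 replicate 2 (adjusted p = 0.00076). PDGFRB, the other marker tested, was not called, and 15 of the 20 were not tested because of low counts. The summed level of these markers was 70.6 to 191 CPM with DMSO and 50.7 to 96.9 CPM with 1E5, and its part in the results was not tested.

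Of 16 semaphorins, their receptors the plexins and neuropilins, 9 fell (56.2%, beside 19.3% of all genes) and 1 rose (median -0.81). SEMA3A (chr7:83955777-84492724), a secreted guidance cue, was at 92.0, 107 and 92.8 CPM with DMSO and 10.7, 10.9 and 8.86 CPM with 1E5 (log2 fold change -3.26 ± 0.12 (SE), adjusted p = 1.05e-07), the smallest p of any gene that fell. SEMA3C went from 489, 750.1 and 590.4 to 86.5, 112 and 79.2 CPM (-2.72 ± 0.18, adjusted p = 1.65e-06), and PLXNA1, a receptor, from 335, 334 and 298 to 124, 123 and 118 CPM (-1.41 ± 0.11, adjusted p = 3.63e-06). SEMA3B rose from 1.33, 1.70 and 0.97 to 6.44, 5.19 and 5.84 CPM (2.12 ± 0.27, adjusted p = 0.00011). Of 23 interferon response genes 4 rose and 12 fell (17.4% and 52.2%, beside 19.7% and 19.3% of all genes, median -0.82). IFIT1 and OAS3, antiviral effectors, fell by 2.03 and 1.66 on the log2 scale, and the regulator IRF7 rose by 1.23. Of 12 genes of MHC class I presentation 3 rose (25%, beside 19.7% of all genes), 1 fell and 8 were not called. HLA-B, HLA-C and HLA-F rose by 1.54, 1.12 and 1.15, and reads of these paralogs can be shared. The call of HLA-F was lost without DMSO replicate 3 (adjusted p = 0.058) and in only the 6 compared libraries (0.0662), and 5 of the list rose without DMSO replicate 1. TAPBP, which loads peptides onto class I, fell by 0.75 on the log2 scale (adjusted p = 0.0253), and by 1.14 without 1E5 replicate 2. Its call was lost without 1E5 replicate 1, 1E5 replicate 3, DMSO replicate 1 or DMSO replicate 2 (adjusted p = 0.0782, 0.0913, 0.0703 and 0.0536) and in only the 6 compared libraries (0.0758).

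The NF-kB, ERK and TGF-beta lists had genes called in each direction. Of 18 NF-kB genes 4 rose and 5 fell, 22.2% and 27.8% beside 19.7% and 19.3% of all genes. CCL2, a monocyte chemokine, went from 139, 53.3 and 82.1 to 9.53, 5.86 and 8.43 CPM (-3.52 ± 0.38, adjusted p = 4.15e-05). Without 1E5 replicate 3, 2 of the NF-kB genes rose. Of 17 ERK feedback and EGF ligand genes 9 rose and 5 fell, 52.9% and 29.4%. DUSP5, an ERK phosphatase, rose from 33.1, 18.4 and 24.4 to 148, 144 and 169 CPM (2.60 ± 0.18, adjusted p = 2.2e-06), and ERBB2, the receptor tyrosine kinase, fell by 1.21 on the log2 scale. With any 1 DMSO replicate left out, 3 of the list fell. Of 18 TGF-beta genes 4 rose and 6 fell, 22.2% and 33.3%. TGFB2, a ligand, fell in every treated library (-2.42 ± 0.19, adjusted p = 3.96e-06), while ID3, a BMP target, rose by 1.64. Of 17 immediate early genes 5 rose and 2 fell, 29.4% and 11.8%. Without DMSO replicate 3, 3 rose, and without 1E5 replicate 1 or 3 or DMSO replicate 1 or 2, 1 fell.

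Glycolysis genes fell in 8 of 24 (33.3%, beside 19.3% of all genes) and rose in 4 (16.7%, near the 19.7% of all genes). LDHA, lactate dehydrogenase, was at 783, 1071 and 859 CPM with DMSO and 144, 232 and 117 CPM with 1E5 (-2.46 ± 0.23, adjusted p = 1.71e-05). PGAM1 and ENO1 fell by 1.10 and 1.01 on the log2 scale. SLC2A1, the glucose transporter, rose from 25.2, 42.3 and 25.7 to 163, 257 and 150.1 CPM (2.61 ± 0.25, adjusted p = 1.6e-05), and HK2 and VEGFA, targets of hypoxia, by 2.36 and 2.17. The list median moved from -0.21 to -0.68 without 1E5 replicate 2, with 12 lower. Of 26 lysosome and autophagy genes 11 rose and 4 fell, 42.3% and 15.4%. CTSL, a cathepsin, was at 49.5, 40.3 and 38.9 CPM with DMSO and 126, 128 and 117 CPM with 1E5 (1.52 ± 0.11, adjusted p = 2.22e-06), and SQSTM1 (p62), the autophagy receptor, was at 1248, 929.9 and 1124 CPM with DMSO and 3474, 3549 and 3355 CPM with 1E5 (1.65 ± 0.15, adjusted p = 9.99e-06). Without 1E5 replicate 2, 8 of this list fell, and without DMSO replicate 3, 7 rose and 2 fell.

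Over all genes called, those averaging 5 CPM or more whose groups were separate were ranked by fold change, and several of the top ones were at 0 in one group. SLC30A2, a zinc transporter of secretory vesicles, was at 0 in all controls and at 33.8, 6.57 and 22.1 CPM with 1E5, at least 490.3-fold higher. ATP6V0D2, a subunit of the proton pump of lysosomes, was at 0 and 14.5, 4.79 and 11.7 CPM, at least 244-fold higher. NGFR (chr17:49495293-49515017), the low-affinity nerve growth factor receptor, was at 2.71, 2.60 and 1.79 CPM with DMSO and 339, 489.9 and 333 CPM with 1E5 (log2 fold change 7.36 ± 0.29 (SE), adjusted p = 1.55e-07), 164-fold higher with each treated library above 300 CPM. THBD and PDE2A rose by 5.29 and 5.27. AC004997.1 was called higher by 5.47 with 1 treated library far above the rest, 0.197, 0.122 and 0.621 CPM against 0.715, 41.3 and 1.39, and was 1.71 without it (adjusted p = 0.269). Without DMSO replicate 1 and without DMSO replicate 2 its adjusted p was 0.072 and 0.0749. The call was also lost in limma-voom (3.57, adjusted p = 0.335).

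On the falling side PCDH20, a protocadherin, went from 12.4, 15.9 and 10.6 CPM to 0, at least 318-fold lower. RET, the GDNF family receptor kinase, was at 124, 151 and 95.3 CPM with DMSO and 2.46, 7.24 and 2.86 CPM with 1E5 (-4.89 ± 0.42, adjusted p = 8.72e-06), and MUC16, the CA125 antigen, at 20.8, 46.9 and 25.7 CPM with DMSO and 0.159, 2.53 and 0.696 CPM with 1E5 (-4.81 ± 0.69, adjusted p = 0.000262). They fell by 5.53 and 6.16 on the log2 scale without 1E5 replicate 2. PTGS1, a cyclooxygenase, fell by 4.75, and by 6.32 without 1E5 replicate 2. CBLN2, a synapse organiser, went from between 11.8 and 15.9 CPM to 0, 0.355 and 0 CPM, at 0 in 2 treated libraries. It fell by 6.94 on the log2 scale, and by 11.4 without 1E5 replicate 2, where the treated libraries left were at 0 and the size is not well set. FAM111B, a replication protease, fell by 4.80. The read-through SENP3-EIF4A1 was at 0 in each treated library, but its call was lost without 1E5 replicates 1, 2 and 3 in turn (adjusted p = 0.0677, 0.0692 and 0.0729), and without DMSO replicates 1, 2 and 3 (0.0634, 0.0555 and 0.05). It was also lost in limma-voom (0.4) and in a fit of all 36 libraries (0.0642). Counting of such read-through loci is uncertain.

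The genes with the smallest p included others that are not in a list. UPP1, uridine phosphorylase, was at 172, 139.5 and 138 CPM with DMSO and 1799.7, 1379.6 and 1687 CPM with 1E5 (3.43 ± 0.15, adjusted p = 1.55e-07). ZFAND2A, a proteotoxic stress gene, rose from 8.39, 8.23 and 7.96 to 44.4, 48.7 and 42.5 CPM. GCC1 and DUSP15 rose by 1.67 and 4.09. ARRB1, a receptor desensitiser, fell from 182, 177 and 194 to 16.3, 22.5 and 18.1 CPM (-3.28 ± 0.14, adjusted p = 1.55e-07), and PDE5A, the cGMP phosphodiesterase, from 270.3, 312 and 303 to 41.4, 40.4 and 45.6 CPM. GRIN2A, TRIB2 and RASL11A fell by 3.14, 2.81 and 4.24 on the log2 scale.

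The response to 1E5 was then compared between lines in a fit over all 36 libraries. It differed from that of MIA PaCa-2 for 6278 of 22132 genes (28.4%), with 2681 above and 3597 below it, and from that of BxPC-3 for 3407 (15.4%). Over the genes tested in PANC-1 the median difference from MIA PaCa-2 was -0.19 and from BxPC-3 0.01, so list values against MIA PaCa-2 are read relative to that. HSPA5 went from 574 ± 86.3 to 1867 ± 326 CPM (SD, n = 3) in MIA PaCa-2 and from 1379.6 ± 183 to 1324 ± 31.8 CPM in BxPC-3. Its rise in PANC-1 was larger by 1.83 ± 0.23 (SE) and 3.59 ± 0.24 on the log2 scale (adjusted p = 1.15e-06 and 3.29e-11). SEMA3A went from 227 ± 35.6 to 166 ± 3.71 CPM in MIA PaCa-2 and from 140.4 ± 5.72 to 141 ± 3.13 CPM in BxPC-3, a difference of -2.81 and -3.28.

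The lists differed by line. Against BxPC-3 the response was below for 31 of 33 mitosis genes and 26 of 35 replication genes, where 7.77% of all genes were below, and above for 18 of 28 amino acid genes, where 7.63% were above. Against MIA PaCa-2 it was above for 8 of 13 mitochondrially encoded genes (median 0.95) and 17 of 20 ribosomal genes (median 1.00), where 12.1% of all genes were above. It was below for 10 of 19 fatty acid genes, where 16.3% were below. The mitosis list had 7 of 33 genes below the MIA PaCa-2 response and 2 above. The replication list had 2 of 35 below and 10 above, and the amino acid list 9 of 28 below and 5 above. CBR3, a carbonyl reductase, rose in PANC-1 (2.12 ± 0.26, adjusted p = 0.000101) and went from 28.5 ± 4.52 to 3.88 ± 0.471 CPM in MIA PaCa-2. ATP2B1, a calcium pump, was -0.29 ± 0.10, adjusted p = 0.0326 in PANC-1, a call lost without 1E5 replicate 2 (adjusted p = 0.062), 1E5 replicate 3 (0.0609) and each DMSO replicate (0.0523 to 0.0992), with no filter (0.0765), in only the 6 compared libraries (0.0885) and in all 36 libraries (0.201). It went from 6.62 ± 2.63 to 78.0 ± 14.8 CPM in MIA PaCa-2.

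**Figure D5:**
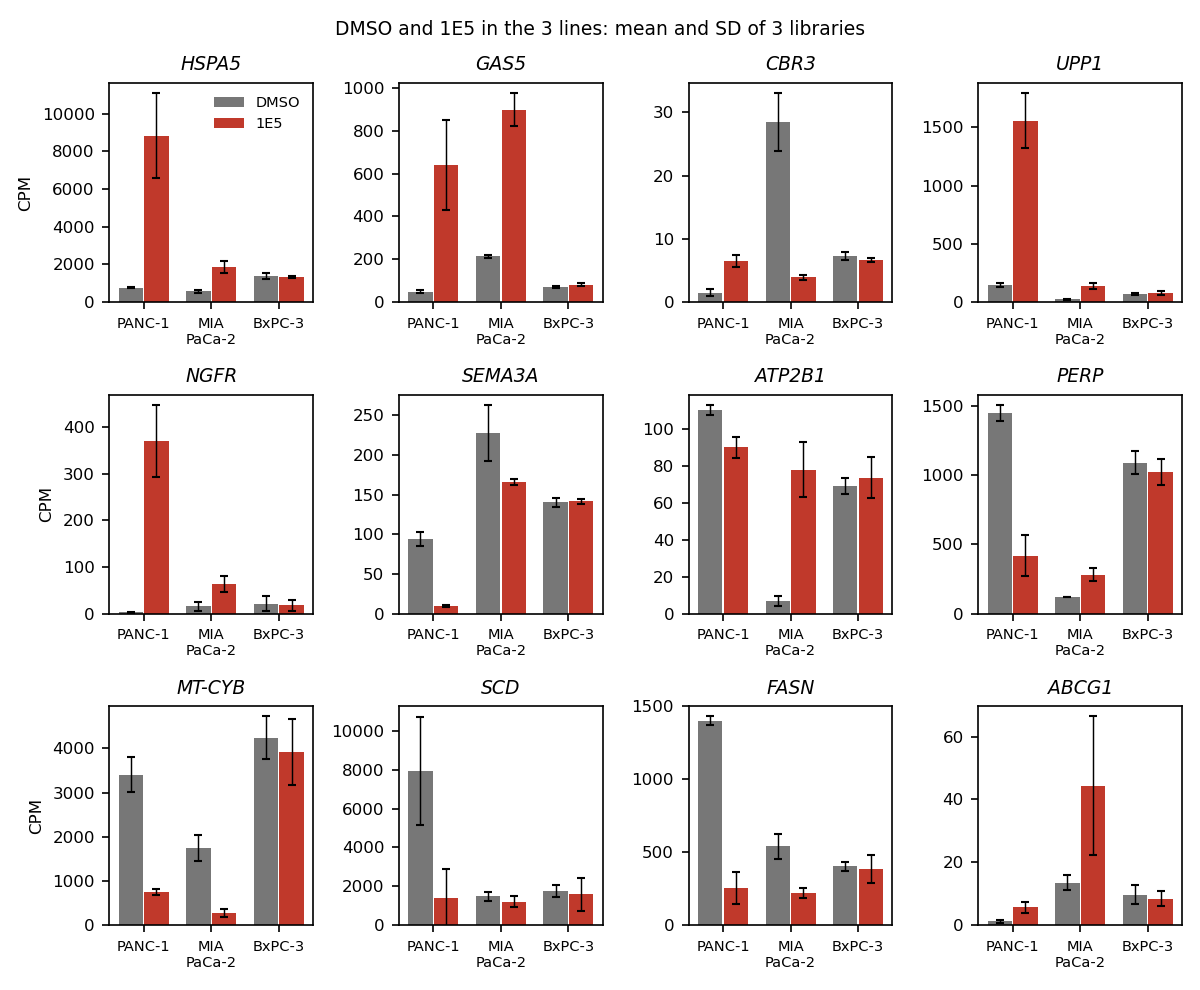
Mean CPM of 12 genes with DMSO (grey) and 1E5 (red) in PANC-1, MIA PaCa-2 and BxPC-3, bars from 0 with the SD of 3 libraries. The 1E5 bars of HSPA5, GAS5 and UPP1 stand above those of DMSO in PANC-1 and MIA PaCa-2.

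At the same dose and time, 1E5 was last set against the other compounds in PANC-1. These contrasts use the same 3 1E5 libraries, so they are not independent of the comparison with DMSO or of one another. 1E5 differed from 3A4 for 6914 genes (37.3%, 18.8% higher and 18.5% lower) and from GW3965 for 6439 (34.7%). Mitosis was lower than with 3A4 in 33 of 33 genes, and amino acid supply higher in 26 of 28. HSPA5 was at 964, 936 and 932 CPM with 3A4, 3.29 lower on the log2 scale than with 1E5 (adjusted p = 1.13e-06), and ABCG1 was at 0.883, 0.626 and 0.703 CPM, 3.01 lower (adjusted p = 2.15e-05). LPCAT3 was at 34.6, 38.2 and 37.1 CPM with 3A4, and 1E5 was below it by 1.08 on the log2 scale (adjusted p = 1.77e-05). For ABCA1 the 2 inverse agonists differed by 0.13 (95% interval -0.44 to 0.70, adjusted p = 0.74), for MYLIP by 0.08 (-0.16 to 0.32) and for SREBF1 by 0.11 (-0.81 to 1.02), none passing the test. Without 1E5 replicate 2 SREBF1 was 0.77 lower on the log2 scale with 1E5 than with 3A4 (adjusted p = 0.017).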

How the data were processed

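Counts per gene were deposited by the authors as 1 table of raw read counts for 36 libraries. The submitters' processing notes list StringTie 1.3.1c, HISAT2 2.0.2, Trim Galore 0.4.4 and SAMtools 1.3, with GRCh38 (hg38) as the build. Neither the annotation nor the strand setting is given in the sources used here. Without the strand setting, reads of overlapping and antisense genes cannot be told apart. Of 58658 lines, 407 named transcripts and 8 assembled loci and were left out (at most 0.00396% of a library's counts).

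The 12 PANC-1 libraries were fitted with 1 mean per group in edgeR 4.0.16 (R 4.3.3), using TMM scaling, filterByExpr (minimum count 10, total 15), the quasi-likelihood test and Benjamini-Hochberg adjustment at 0.05. Responses were compared between lines in 1 fit of all 36 libraries. Standard errors came from the fold change and its F value. The test was checked on simulated counts. Among 18058 genes it called 29 of 95 simulated 2-fold changes (30.5%) and 80 of 105 4-fold changes (76.2%) in the right direction. It missed the others and also called 7 genes left unchanged. In 1E5 against DMSO far more genes were called (39.1%), and the share of changes missed there was not tested. Alternatives were RLE scaling, no filter, DESeq2 1.42.0, limma 3.58.1 with voom, a replicate block, the 6 compared libraries alone, all 36 together, no mitochondrially encoded genes, and each replicate left out. The members and the 39 lists (771 genes) were chosen with earlier results of these data known.

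Genes were named by rule: NR1H2, NR1H3, ABCA1, ABCG1, MYLIP, LPCAT3, SREBF1, SCD and FASN; 8 genes per direction with the largest fold change, if called, separate between groups and averaging 5 CPM or more; the 6 smallest p per direction; up to 3 called per list and direction; the 5 most extreme per treated library and direction; and up to 4 per further comparison. Some of these genes are not reported here. Promoter sequences and gene coordinates came from RefSeq (GRCh38.p14) and GENCODE 29. Windows were also read for other words. The sterol regulatory element occurs in 1.13% of all windows, in 1 of 20 cholesterol genes and 0 of 16 fatty acid genes. The perfect-repeat LXR element occurs in 0.0199% of all windows and 0 of 9 LXR targets. The antioxidant core occurs in 13.3% of all windows and 3 of 16 NRF2 targets (18.8%). The metal response core occurs in 55.9% of all windows and 4 of 5 metallothionein and zinc transporter genes (80%).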

Additional observations from a re-analysis of the deposited data

Results flagged for a closer look

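The response to 1E5 differed between lines for 24 named results, by the interaction term of the fit over 36 libraries in edgeR. Values are the log2 response in PANC-1 minus that in the other line; each line has 3 libraries a group, and the comparisons share the PANC-1 libraries. Against MIA PaCa-2, the PANC-1 response lay above for NR1H3 1.56 (adjusted p = 0.0102), NGFR 5.37 (adjusted p = 5.67e-06), UPP1 0.83 (adjusted p = 0.00457) and HSPA5 1.83 (adjusted p = 1.15e-06). The same held for GAS5 1.65 (adjusted p = 7.23e-06) and CBR3 4.99 (adjusted p = 8.61e-12). Against MIA PaCa-2, the PANC-1 response lay below for SCD -2.21 (adjusted p = 0.0081), FASN -1.20 (adjusted p = 0.00309), SEMA3A -2.81 (adjusted p = 8.61e-12) and ATP2B1 -3.79 (adjusted p = 6.07e-11). The same held for PERP -3.03 (adjusted p = 6.71e-10). Against BxPC-3, the PANC-1 response lay above for ABCG1 2.55 (adjusted p = 0.00139), NGFR 7.61 (adjusted p = 6.4e-08), UPP1 3.28 (adjusted p = 3.29e-11) and HSPA5 3.59 (adjusted p = 3.29e-11). The same held for GAS5 3.47 (adjusted p = 9.76e-11) and CBR3 2.23 (adjusted p = 4.31e-06). Against BxPC-3, the PANC-1 response lay below for LPCAT3 -1.54 (adjusted p = 1.22e-05), SCD -2.36 (adjusted p = 0.00947), FASN -2.40 (adjusted p = 1.79e-06) and SEMA3A -3.28 (adjusted p = 1.91e-13). The same held for MT-CYB -2.09 (adjusted p = 8.53e-07), PERP -1.70 (adjusted p = 4.37e-06) and TM4SF18 -2.52 (adjusted p = 0.00217).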

How the results depend on the processing

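The number of genes called for 1E5 against DMSO ranged from 5114 (the 6 compared libraries alone) to 7792 (DESeq2), against 7248, and from 5658 to 7789 with a replicate left out. Of the 7248 calls, 4255 kept their direction and side of the threshold in all 14 alternatives, and 0 were called in the opposite direction. With the replicate block the count was 7604, and AC004997.1 was not called (4.12, adjusted p = 0.0842). Over all genes, deviations from the group mean correlated at 0.0839, 0.0462 and 0.00122 between same-numbered DMSO and 1E5 libraries. For differently numbered libraries the correlations ran from -0.0728 to 0.0199. These values do not settle whether the numbers pair the libraries, and some genes could still share an effect of the replicate. With a replicate left out, the comparisons with MIA PaCa-2, BxPC-3, 3A4 and GW3965 gave 5530 to 6264, 2644 to 3395, 5451 to 7286 and 4773 to 6983 genes. Of the gene-level fold changes recomputed, 3619 kept direction and call, 137 lost the call, 12 gained it and 11 changed sign. The 11 belong to 5 comparisons that did not pass the test. With a replicate left out, SREBF1 against MIA PaCa-2 ranged from -1.07 (without 1E5 replicate 2) to 0.161 (without 1E5 replicate 3), against -0.13, and was also above 0 without 1E5 replicate 1 (0.124) and DMSO replicate 2 (0.0939). SREBF1 against 3A4, 0.11, was -0.0744 with the replicate block and ranged from -0.772 (without 1E5 replicate 2, adjusted p = 0.017) to 0.426 (without 1E5 replicate 3). ABCA1 against 3A4 ranged from -0.0684 (without 3A4 replicate 1) to 0.333 (without 1E5 replicate 2) and was -0.0303 without 1E5 replicate 1. SCD against 3A4 ranged from -1.75 (without 1E5 replicate 2) to 0.0328 (without 1E5 replicate 1) and was 0.00991 without 1E5 replicate 3. NR1H3 against GW3965 ranged from -0.157 (without GW3965 replicate 1) to 0.0498 (without 1E5 replicate 2) and was 0.0233 without GW3965 replicate 2. The cause was not tested. The median SE of 0.242 limits which small changes could be called.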

Other observations

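For some transcripts 1 treated library stood far from the other treated libraries. RNA5-8SN3, a 5.8S ribosomal RNA, was at 144.6 CPM in 1E5 replicate 1 against 5.90 and 10.4 CPM in replicates 2 and 3, and RN7SK, a small nuclear RNA, was at 51.8 CPM against 5.02 and 4.10 CPM. In 1E5 replicate 2, PER1, a clock gene, was at 174 CPM against 23.8 and 24.1 CPM. IFITM1, an antiviral membrane protein, was at 4.69, 144 and 33.5 CPM in the 3 treated libraries. The read-through locus BLOC1S5-TXNDC5 was at 281 CPM in 1E5 replicate 3 and at 0 in the other treated libraries, while DMSO libraries had 364, 317 and 0 CPM.

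Gene length also went with the direction of change. Protein-coding genes were ranked by length and split into 4 equal groups. The longest group (76.91 to 2241.76 kb) had a median log2 fold change of -0.11, with 17% called higher and 27.4% lower. The shortest group (0.207 to 12.712 kb) had 0.05, with 22.5% higher and 18.9% lower. In the longest group the medians were -0.10, -0.18 and -0.07 in 1E5 replicates 1, 2 and 3. The cause was not tested.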
